A study of Mus musculus with 8 samples.

Results

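The genes described here are 9 genes of protein folding in the endoplasmic reticulum (ER), the compartment in which secreted and membrane proteins are folded. They are P4hb, Pdia3, Pdia4 and Pdia6, which encode protein disulfide isomerases, Hspa5 and Hsp90b1, which encode the chaperones BiP and Grp94, Calr and Canx, which encode the lectin chaperones calreticulin and calnexin, and the transcription factor gene Xbp1. They were taken by name from a list that was chosen with earlier results of these data known. All 9 were found among the 20254 genes of the table and among the 15381 genes tested. Ero1l, named Ero1a in newer annotation, was read beside them and is not counted as a member.

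Disulfide bonds form in the ER when the oxidase encoded by Ero1l passes oxidising equivalents to the active-site cysteines of protein disulfide isomerases, which hand them to folding proteins and also rearrange wrong bonds. BiP and Grp94 hold unfolded chains, and calreticulin and calnexin bind glycoproteins through a trimmed sugar and present them to Pdia3. When unfolded protein accumulates, the unfolded protein response (UPR) raises many of these genes through the factors ATF6 and spliced XBP1, which bind ER stress elements in promoters.

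Polyadenylated RNA was sequenced from cells sorted by GFP fluorescence from mouse kidneys at embryonic day 17.5. The strain was Six2EGFPcre, in which a fusion of GFP and Cre recombinase is expressed under Six2, a transcription factor gene of nephron progenitors, and both groups carry it. The control group (VHLNP+/-, 4 libraries) was heterozygous and the mutant group (VHLNP-/-, 4 libraries) homozygous for deletion of Vhl, the gene of the ubiquitin ligase subunit that recognises hypoxia-inducible factor. Deletion follows Six2-driven Cre, so it is limited to cells in which that transgene was active. Whether the 4 libraries of each group are separate animals is not stated, so p-values reflect only variation among these libraries, which may be technical in part.

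Libraries held 37252683 to 46515762 reads assigned to genes. Values are normalised reads, which are reads assigned to a gene divided by the size factor of the library. Of the 11 nephron progenitor markers, 1 rose (Gdnf), 2 fell (Osr1 and Meox1) and 8 were not called, and Six2 was at 21553 to 28134 normalised reads in controls and 21599.9 to 26992 in mutants. The summed podocyte markers were at 10351 to 19484 in controls and 8526 to 12547 in mutants, and the stromal markers at 24363 to 53564 and 20661 to 42621. The sums were 2305 to 8666 and 4011 to 9831 for tubule markers, 1963 to 4579 and 2795 to 5092 for ureteric bud markers, and 1332 to 2442 and 1805 to 2349 for endothelial markers. Leukocyte markers summed to 511 to 992 and 580 to 938, and erythroid markers to 112 to 293 and 72 to 174. In the podocyte list Plce1 rose, and it was the 1 marker of 8 with a log2 fold change above 0, where the median was -0.86. Plvap of the endothelial list rose, and 0 were called by limma in the other 5 lists of other cell types. Among these, the ureteric bud list had 8 of 8 log2 fold changes above 0, with a median of 0.58. The medians were 0.04 for tubule, 0.02 for stromal, -0.11 for leukocyte and -0.87 for erythroid markers (2 tested). In those 5 lists 2 genes had an unadjusted p under 0.05 and the authors' deposited table calls 1, and no marker in the table was at 0 in all libraries. The part of these other cells in the results was not tested, and in bulk RNA fewer cells of a type and less RNA per cell cannot be told apart. Control 2 and mutant 2 stood apart in Xist, the RNA of the inactive X chromosome, with 8.8 and 51.9 normalised reads against 60017 to 111673 in the other 6 libraries. They are thus not technical copies of the other libraries of their groups, while for those 6 this stays unknown. Control 3 and mutant 2 deviated from their group means together (r = 0.57 across genes). Results without each of these pairs are given where the call changes.

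The deleted gene Vhl (chr6:113623959-113631633, GRCm38) checked the labels. Its level was 1133.5, 1379, 1208 and 1179.7 normalised reads in controls 1 to 4 and 320.2, 285, 331 and 336 in mutants 1 to 4, so the groups did not overlap. It fell by 1.94 in log2 units (SE 0.08, limma adjusted p = 4.22e-08).

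Of the 9 ER folding genes, P4hb and Hsp90b1 rose in mutant libraries, by 1.35-fold and 1.36-fold, 0 fell, and 7 were not called at a limma adjusted p under 0.05. Ero1l rose 3.11-fold, a larger change than that of any of the 9. Of all 15381 genes tested, 5.4% rose and 3.03% fell, 8.43% in either direction, against 22.2% of the 9 members. An unadjusted p under 0.05 was reached by 23.3% of all genes tested, 1851 higher and 1727 lower. A log2 fold change above 0 was found for 7465 of the 15381. The median log2 fold change of the members was 0.09, and that of all genes was -0.01. Fold changes are mutant over control, fitted on the scale log2(normalised reads + 1). The plot of fitted changes shows these values with their 95% confidence intervals.

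**Figure D1:**
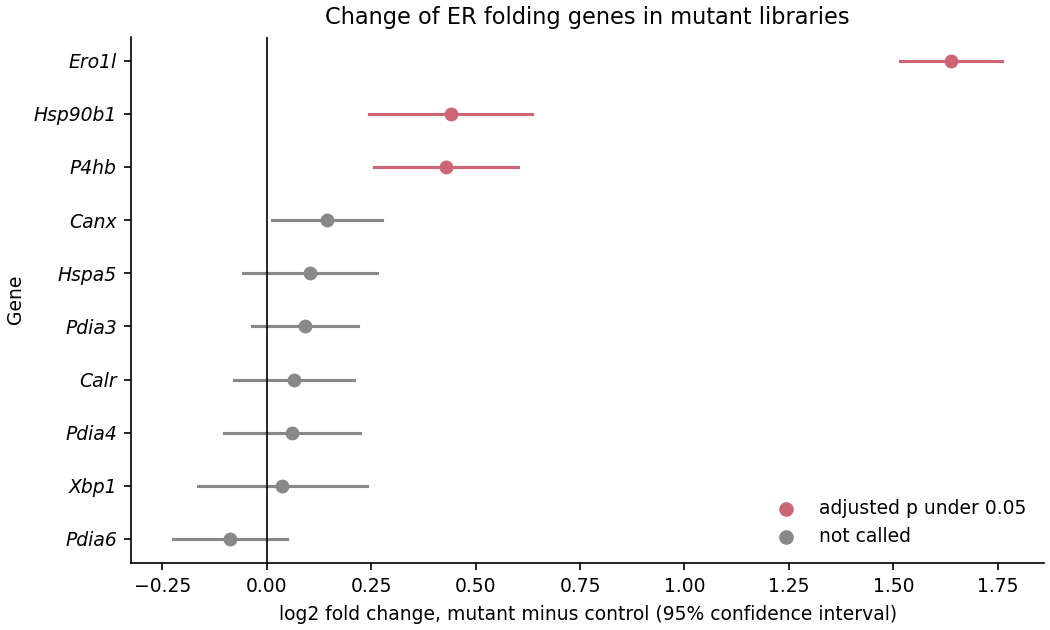
Log2 fold change (x axis, mutant minus control) of Ero1l and the 9 ER folding genes (y axis), as limma estimates (points) with 95% confidence intervals (lines). Ero1l (1.64), Hsp90b1 (0.44) and P4hb (0.43) were called at an adjusted p under 0.05, and the 7 genes in grey, from 0.14 for Canx to -0.09 for Pdia6, were not.

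The promoters of the genes on which the comparison turns are shown as the 250 bases before the RefSeq start (GRCm38.p6), 5′ to 3′ on the strand of the gene. Entries were found for all 10 genes, counting Ero1l. The motifs searched on both strands were the ER stress element ERSE, spelled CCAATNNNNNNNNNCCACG, the UPR element UPRE (TGACGTGG), and the cores ACGTG and GCGTG of the element bound by hypoxia-inducible factor. Capitals mark ERSE matches in Hspa5 (chr2:34771840-34772089, plus strand) and Hsp90b1 (chr10:86705445-86705694, minus strand), where the second match reads on the opposite strand. In P4hb (chr11:120573254-120573503, minus strand), which has no ERSE match in this window, they mark the separate CCAAT and CCACG. In Ero1l (chr14:45318573-45318822, minus strand) they mark the hypoxia cores, of which CACGT is ACGTG on the opposite strand.
Hspa5: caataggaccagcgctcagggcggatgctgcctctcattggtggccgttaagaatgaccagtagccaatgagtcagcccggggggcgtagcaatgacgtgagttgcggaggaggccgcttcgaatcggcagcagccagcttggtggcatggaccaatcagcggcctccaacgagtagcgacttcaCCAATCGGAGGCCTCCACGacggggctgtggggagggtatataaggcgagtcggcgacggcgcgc
Hsp90b1: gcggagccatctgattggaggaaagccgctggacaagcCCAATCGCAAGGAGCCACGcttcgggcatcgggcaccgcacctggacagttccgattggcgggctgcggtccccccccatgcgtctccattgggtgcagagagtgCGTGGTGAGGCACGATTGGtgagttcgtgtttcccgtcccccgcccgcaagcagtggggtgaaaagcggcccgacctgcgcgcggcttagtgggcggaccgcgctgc
P4hb: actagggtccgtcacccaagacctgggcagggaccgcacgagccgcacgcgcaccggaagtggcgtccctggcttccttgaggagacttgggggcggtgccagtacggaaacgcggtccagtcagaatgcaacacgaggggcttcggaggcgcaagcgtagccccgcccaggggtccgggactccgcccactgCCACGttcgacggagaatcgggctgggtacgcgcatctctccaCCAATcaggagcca
Ero1l: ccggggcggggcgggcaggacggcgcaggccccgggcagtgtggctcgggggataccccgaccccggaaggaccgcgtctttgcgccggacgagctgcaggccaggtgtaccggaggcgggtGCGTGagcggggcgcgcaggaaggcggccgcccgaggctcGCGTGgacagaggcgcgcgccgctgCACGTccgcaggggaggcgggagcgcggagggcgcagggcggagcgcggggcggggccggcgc

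An ERSE match was found in 37 of 32851 promoters of this length (0.113%) and in 5 of the 9 members. Hsp90b1 had a pair of matches, and P4hb, Pdia3, Pdia4, Xbp1 and Ero1l had 0. The matches are shown on the strand on which they read as ERSE, with its fixed letters in capitals, to compare the spacers.
Pdia6: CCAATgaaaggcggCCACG
Hspa5: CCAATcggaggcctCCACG
Hsp90b1, far match: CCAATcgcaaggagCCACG
Hsp90b1, near match: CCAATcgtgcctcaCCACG
Calr: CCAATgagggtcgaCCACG
Canx: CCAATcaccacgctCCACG
The Pdia6 match began 98 bases before the start, that of Hspa5 65 bases, those of Hsp90b1 212 and 107 bases, that of Calr 162 bases and that of Canx 145 bases. UPRE had 0 matches in the 10 promoters, and it occurs in 0.563% of all promoters. A hypoxia core of either spelling occurs in 38.6% of all promoters. Ero1l, Pdia6 and Calr held 3 such cores each, and P4hb and Hsp90b1 held 2. Hspa5, Pdia3 and Canx held 1, and Pdia4 and Xbp1 held 0. The ACGTG matches of Calr read the same CACGTG on both strands. Genes that rose held 2 or 3 cores and genes that were not called held 0 to 3, and a link with the changes was not tested. The ACGTG of P4hb overlapped its CCACG on the opposite strand. In Hsp90b1, Calr and Canx each GCGTG overlapped an ERSE match. A match describes letters in this window only. Of the members with an ERSE match, Hsp90b1 was called and Hspa5, Calr, Canx and Pdia6 were not, and P4hb and Ero1l rose with 0 matches.

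Ero1l (chr14:45283087-45318771), the oxidase that feeds the disulfide isomerases, was at 2170.0, 2139, 2278 and 2112 normalised reads in controls 1 to 4 and at 6687, 6363, 7264 and 6789 in mutants 1 to 4. The lowest mutant library was above the highest control library by more than the spread within either group. It rose by 1.64 in log2 units (SE 0.06, limma adjusted p = 7.14e-09), and it ranked 14 among all genes by p. Within the group of 9 genes that oxidise disulfides in the ER or the secretory pathway, Ero1l rose and 8 were not called. Its paralog Ero1lb was at 292 ± 16.4 and 314 ± 3.16 normalised reads (SD, n = 4 each, adjusted p = 0.483). Prdx4, a peroxiredoxin that uses the peroxide made by the oxidase to form further disulfides, was at 3800.0 ± 329 and 4440.2 ± 293 (SD, n = 4 each), a log2 difference of 0.23 with a limma adjusted p of 0.0855. It was called in 3 of 23 alternatives, among them the authors' deposited table (log2 fold change 0.22, adjusted p = 0.0368).

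P4hb (chr11:120560298-120573253) encodes the archetypal protein disulfide isomerase, which is also the beta subunit of collagen prolyl 4-hydroxylase. Its level was 28399.8, 33774, 31629 and 32258 normalised reads in controls 1 to 4 and 46318, 42897, 37198 and 43512 in mutants 1 to 4. Control 1 and mutant 3 were the lowest library of each group, and the groups did not overlap. P4hb rose by 0.43 in log2 units (SE 0.08, 95% interval of the fold 1.19 to 1.52, limma adjusted p = 0.006). It was called in 22 of 23 alternatives, and without control 3 and mutant 2 the log2 difference was 0.43 with an adjusted p of 0.0501.

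The catalytic subunits that pair with P4hb in collagen prolyl hydroxylase were called with larger changes. P4ha1 was at 3496, 4011, 5009 and 3676 normalised reads in controls and 10579, 10982, 10800.2 and 10475.5 in mutants, a rise of 1.42 in log2 units (SE 0.10, limma adjusted p = 2.63e-06). P4ha2 was at 759, 723, 816 and 687 in controls and 3777, 4077, 3481 and 3849.5 in mutants, a rise of 2.35 (SE 0.07, adjusted p = 1.94e-09). The groups were far apart for both. The other partners, P4ha3 (log2 difference -0.18, adjusted p = 0.217) and the lipid transfer protein gene Mttp (0.09, adjusted p = 0.575), were not called. P4ha1 transcripts amounted to 12.75% of P4hb transcripts in controls and 25.29% in mutants, and P4ha2 to 2.37% and 8.95%, in normalised reads not corrected for length. Ero1l was at 6.91% of P4hb in controls and 15.98% in mutants. In each of these ratios the groups did not overlap (exact two-sided permutation p = 0.0286, the smallest that 4 against 4 libraries allow).

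The other disulfide isomerases of the set did not pass the test. Pdia3, the isomerase that works with calreticulin and calnexin, was at 22637, 21450.0, 21791 and 23088 normalised reads in controls and 25051, 22088, 23539 and 24177 in mutants. The groups overlapped, and the fold was 1.07 (95% interval 0.976 to 1.16, limma adjusted p = 0.379). Pdia4, found in complexes with BiP, was at 8879, 10027, 10823.5 and 10101 in controls and 11096, 10741, 9319.5 and 10352 in mutants, with a fold of 1.04 (0.931 to 1.17, adjusted p = 0.683). Pdia6 was at 12220.1, 13321, 11905 and 13007 in controls and 12599, 10972, 11597.5 and 12314 in mutants. It was the member with a negative log2 difference, -0.09, and its fold was 0.941 (0.855 to 1.03, adjusted p = 0.439). A rise of the size fitted for P4hb lies outside these 3 intervals. Annotated genes on the opposite strand, Catsper2 and Atp6v1c2, overlap exons of Pdia3 and Pdia6 and were at 0.300% and 0.242% of their levels.

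Of 18 further members of the protein disulfide isomerase family, 14 were tested and 0 were called by limma, with a median log2 difference of -0.02. At an unadjusted p under 0.05, 1 was higher and 1 was lower, and the authors' deposited table calls 1. Without control 1, or without mutant 1, limma called 1. Txndc5, abundant here, averaged 13383 ± 992 normalised reads in the control and 12199.98 ± 807 in the mutant libraries (SD, n = 4 each, limma adjusted p = 0.292). Dnajc10, a reductase of the family with a J domain that binds BiP, was at 7237 ± 436 and 7846 ± 109 (adjusted p = 0.229).

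**Figure D2:**
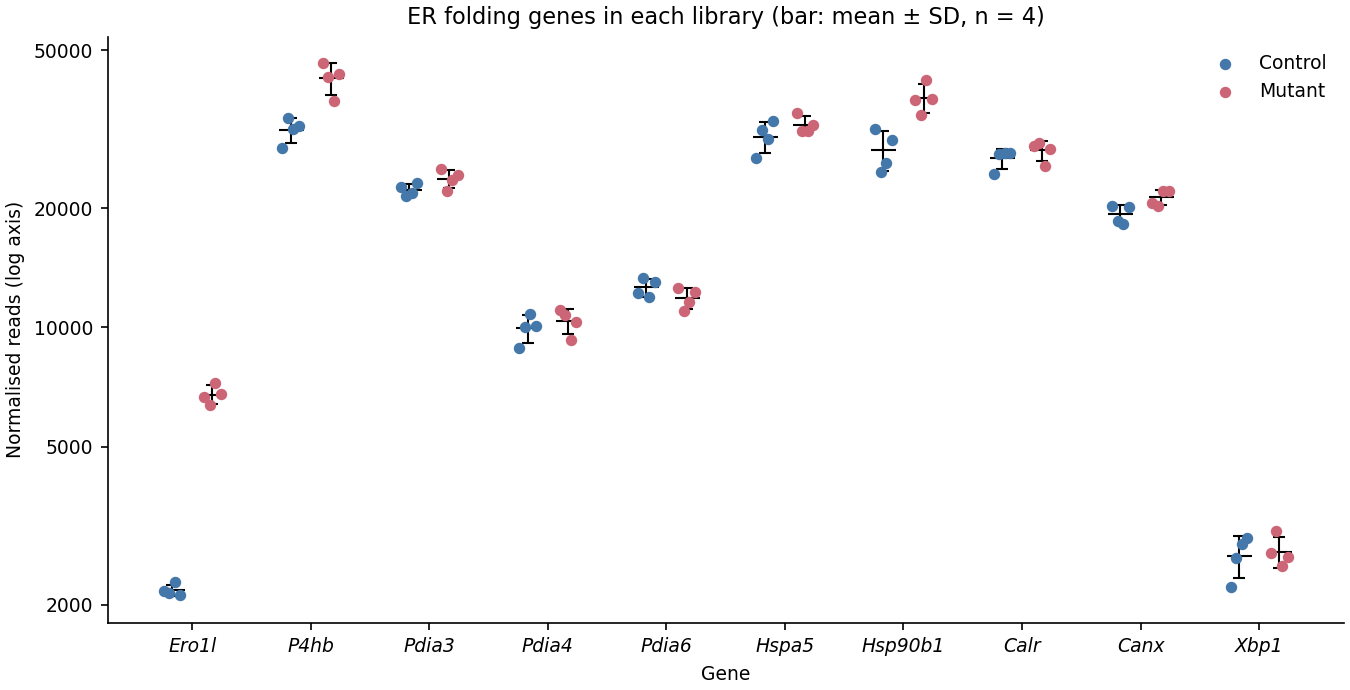
Normalised reads (y axis, log scale) of Ero1l and the 9 ER folding genes (x axis) in each library, controls in blue and mutants in red, with bars for the mean ± SD (n = 4). The mutant points lie wholly above the control points for Ero1l, P4hb, Hsp90b1 and, by a narrow gap, Canx (lowest mutant 20274, highest control 20217), and the groups overlap for the other 6 genes.

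Hsp90b1 (chr10:86690209-86705509), the gene of Grp94, which folds a narrow set of clients such as integrins and Toll-like receptors, was at 31580.0, 24679.7, 25907 and 29749.8 normalised reads in controls 1 to 4. In mutants 1 to 4 it was at 37435, 34364, 42029 and 37618, and the groups did not overlap. Here control 1 and mutant 3 were the highest library of each group. Hsp90b1 rose by 0.44 in log2 units (SE 0.09, 95% interval of the fold 1.19 to 1.55, limma adjusted p = 0.0104). It was called in all 23 alternatives, with a limma adjusted p of up to 0.0395. An annotated gene on the opposite strand, 1810014B01Rik, overlaps its exons and was at 0.831% of its level. Annotated genes on the same strand, Gm15344 and Gm25745, also overlap its exons, and their share of its reads was not tested.

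Hspa5 (chr2:34771970-34777547), the gene of BiP, a standard readout of the unfolded protein response, was at 26670.4, 31552.5, 29878.5 and 33080.5 normalised reads in controls. In mutants it was at 34822, 31351, 31229 and 32472. The lowest library was control 1, and controls 2 and 4 lay within the range of the mutants. The fold was 1.07 (95% interval 0.961 to 1.201, limma adjusted p = 0.44), and it was called in 0 of 23 alternatives, with log2 differences from 0.04 to 0.15. The upper bound of Hspa5 lies below the fitted folds of P4hb and Hsp90b1.

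Of the 19 cochaperones and exchange factors of BiP and Grp94, 0 were called by limma, 0 had an unadjusted p under 0.05 in either direction, and the authors' deposited table calls 0. Their median log2 difference was 0.04, with 13 of 19 above 0. Hyou1, an exchange factor of BiP, was at 10496 ± 1011 and 10169 ± 896 normalised reads (SD, n = 4 each, limma adjusted p = 0.803). Manf and Sdf2l1, which are named here after their values were seen as textbook UPR targets, had log2 differences of -0.08 and -0.06 (adjusted p = 0.634 and 0.805). These were the lowest values of the list. The highest was that of Dnajb9, also named after its value was seen, at 0.475 (limma adjusted p = 0.403).

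Related chaperones of other compartments gave 3 calls in 37 genes, a share close to that of all genes. The medians were -0.09 for 27 cytosolic and -0.12 for 10 mitochondrial genes. At an unadjusted p under 0.05, 4 were higher and 6 lower in the cytosol, and 1 was higher and 4 lower in mitochondria. The share of all genes tested at that threshold was 23.3%, in either direction. The authors' deposited table has 2 rises and 2 falls in the cytosol and 1 rise and 2 falls in mitochondria. In the cytosol Hsp90aa1, the inducible cytosolic relative of Grp94, was at 31869, 26822, 27996 and 33115 normalised reads in controls and 38049.9, 33864, 41666 and 37508 in mutants. Its groups did not overlap, and control 2 and mutant 2 were the lowest of each, as for Hsp90b1. It rose by 0.34 in log2 units (SE 0.09, limma adjusted p = 0.0319), a call made in 12 of 23 alternatives. Without control 2, control 3, mutant 1, mutant 3 or mutant 4 it was not called (adjusted p up to 0.0953). Hspa4l, an exchange factor of cytosolic Hsp70, rose by 0.46 (adjusted p = 0.00259), and the other 25 of 27 cytosolic chaperones were not called. Without control 1 the count of cytosolic chaperones called was 5. In mitochondria the protease gene Lonp1 rose from 6247 ± 414 to 9297 ± 575 (SD, n = 4 each, log2 difference 0.57, adjusted p = 2.25e-04), and 9 of 10 genes were not called. The chaperonin Hspd1 among them had a log2 difference of -0.15 (adjusted p = 0.139), and without control 1 the count called in mitochondria was 2.

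Calr (chr8:84841850-84846934), the soluble lectin chaperone that also stores calcium, was at 24386, 27435, 27519 and 27476 normalised reads in controls and 28693.5, 29234, 25558 and 28256 in mutants. Control 1 lay well below the other controls, and mutant 3 below the other mutants. The fold was 1.05 (95% interval 0.947 to 1.15, limma adjusted p = 0.605). Canx (chr11:50293961-50325673), its membrane-bound counterpart, was at 20217, 18516, 18209 and 20132 in controls and 20639, 20274, 22109 and 22069.9 in mutants. The mutant libraries were all above the controls, as for 8.54% of all genes (6.72% were all below), by a gap that is small against the spread within each group. Its fold was 1.104 (1.01 to 1.21), and it did not pass adjustment (unadjusted p = 0.0351, limma adjusted p = 0.176).

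Of the 13 tested genes of the glycoprotein lectin cycle, 0 were called by limma or in the authors' deposited table, and 1 had an unadjusted p under 0.05. The abundant lectin Mlec was at 22648 ± 961 and 22956 ± 1322 normalised reads (SD, n = 4 each, limma adjusted p = 0.897). The glucosidase subunit Ganab averaged 18589 ± 962 and 17363 ± 911 (adjusted p = 0.369). The gene under 0.05 was Calr4, named after its value was seen, with 6.1 ± 3.99 and 14.3 ± 2.45 normalised reads (adjusted p = 0.131). Of the 12 oligosaccharyl transferase genes, which attach the sugar that the lectins read, 0 were called by either source, with 1 higher and 1 lower at an unadjusted p under 0.05. Rpn2 and Ddost, its most abundant genes, had log2 differences of -0.04 and -0.02 (adjusted p = 0.813 and 0.912), and without control 1 the count called in this list was 2.

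Xbp1 (chr11:5520659-5525893) was at 2222, 2627, 2845 and 2947 normalised reads in controls and 2699.5, 3060.1, 2497.5 and 2631 in mutants. The groups overlapped over most of their range, and the fold was 1.03 (95% interval 0.892 to 1.181, limma adjusted p = 0.86). The sign of its log2 difference changed in 4 of 23 alternatives. These values count all reads of the gene, so they do not show how much of the transcript was spliced to the active form.

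Among 15 tested sensors and factors of the unfolded protein response, 1 rose, 0 fell and 14 were not called, with a median log2 difference of 0.02. The gene that rose was Trib3, a pseudokinase induced by ATF4 and CHOP, which was at 9.7, 22.6, 13.6 and 16.3 normalised reads in controls and 37.9, 50.1, 50.3 and 71.1 in mutants. Its groups did not overlap, at low levels, and it rose by 1.71 in log2 units (SE 0.29, limma adjusted p = 0.00341). The sensor genes Ern1, Atf6 and Eif2ak3 had log2 differences of -0.02, 0.05 and 0.13 (adjusted p = 0.894, 0.675 and 0.213), and Atf4 and Ddit3, the gene of CHOP, of -0.10 and -0.14 (adjusted p = 0.729 and 0.745). Those 5 are named for their place in the pathway and not by the naming rule. Mbtps1, the protease that releases ATF6, averaged 14213 ± 555 and 13314 ± 682 normalised reads (SD, n = 4 each; limma adjusted p = 0.356).

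Of 21 genes of ER associated degradation, which removes proteins that fail to fold, 1 rose and 0 fell, and without control 1 the count called was 2. Derl3, a channel component, was at 56.3, 56.0, 47.0 and 76.9 normalised reads in controls and 127.9, 102.0, 108.7 and 126.1 in mutants, with no overlap. It rose by 0.98 in log2 units (SE 0.17, limma adjusted p = 0.00498), and its promoter holds an ERSE match. The extracting ATPase Vcp was at 29833 ± 1379 and 27615 ± 1863 (SD, n = 4 each; limma adjusted p = 0.328), and an annotated gene on the opposite strand overlaps its exons.

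Over all tested genes with an ERSE match, 5 of 21 rose and 0 fell (23.8% called), against 8.17% called of the 11992 tested genes with a promoter entry. The 5 were Hsp90b1, Derl3, Xlr3a, Xlr3b and Xlr3c, named after their values were seen. The Xlr3 genes are near-identical copies on the X chromosome, and how reads were divided among them is uncertain. The 23.8% counts these copies as separate genes and may therefore overstate the contrast. The median log2 difference of the 21 genes was 0.10. Genes with a hypoxia core of either spelling were called in 8.1% of cases.

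Compared per kilobase of transcript, control levels of the 9 members ran from Calr (12227 ± 708 normalised reads per kilobase) and P4hb (11015 ± 791) through Hsp90b1 (9904 ± 1143), Hspa5 (8250.4 ± 748) and Pdia3 (8029.5 ± 272) to Pdia6 (5799 ± 304), Canx (4501 ± 246) and Pdia4 (4151 ± 335), with Xbp1 far below at 1249.6 ± 151 (SD, n = 4 each). The libraries of neighbours in this order overlapped for Calr and P4hb, P4hb and Hsp90b1, Hsp90b1 and Hspa5, Hspa5 and Pdia3, and Canx and Pdia4, but not for Pdia3 and Pdia6, Pdia6 and Canx, or Pdia4 and Xbp1. In mutants P4hb (14848 ± 1337) and Hsp90b1 (13402 ± 1117) had higher means than Calr (12791 ± 749), and the libraries of all 3 genes overlapped. Ero1l was at 492 ± 16.5 per kilobase in controls, below Xbp1, and at 1534 ± 84.3 in mutants, where its libraries lay above all those of Xbp1 (1173 to 1437).

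The 9 genes together took 0.439%, 0.435%, 0.420% and 0.455% of reads in controls 1 to 4 and 0.475% to 0.513% in the 4 mutant libraries, highest in mutant 1. Their sum averaged 183235 ± 6266 normalised reads over the controls and 210703 ± 6988 over the mutants (SD, n = 4 each), with no overlap. P4hb (means 31515 in controls and 42481 in mutants) and Hsp90b1 (27979 and 37862) are part of this sum. A sum of the other 7 members is not given, so these values do not show a rise of the set as a whole. Of all single genes tested, 8.54% had mutant libraries all above the controls.

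Ratios were taken for all 36 pairs of members, as the difference of their log2 values in each library, and compared by exact permutation over all 70 relabellings, two-sided. In 11 pairs the groups did not overlap (exact permutation p = 0.0286, the smallest possible). After Benjamini-Hochberg adjustment over the 36 pairs the smallest p was 0.0935, so 0 passed. With a smallest p of 0.0286, this adjustment can be passed only if most of the 36 pairs are at that value. The 14 pairs of 1 called and 1 uncalled member are too few for that, so these ratios cannot decide whether members changed unequally. Of those 14 pairs 9 were at the smallest p, as were 2 of the 21 pairs of uncalled members. The pairs were sorted by calls made in the same 8 libraries, so this contrast follows in part from the calls and is no separate support. The ratio with BiP, P4hb over Hspa5, was among the 11 (mean log2 ratio 0.06 ± 0.06 over controls and 0.39 ± 0.09 over mutants, SD, n = 4 each). The ratio of P4hb to Hsp90b1 was 0.18 ± 0.26 and 0.17 ± 0.23, a difference of -0.01 (exact permutation p = 0.9429). The log2 ratio of Pdia3 to Pdia6 was 0.82 ± 0.09 and 0.999 ± 0.02, and that of Pdia6 to Hspa5 was -1.26 ± 0.10 and -1.45 ± 0.05.

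Libraries of a group differed in a way that split the members. Control 1 and mutant 3 were low for P4hb, Pdia4, Calr and Xbp1 and high for Hsp90b1 and Canx, as the map of deviations shows. The log2 deviations from the group mean were -0.15 and -0.19 for P4hb in these libraries, and 0.18 and 0.15 for Hsp90b1. Over the 8 libraries, with group means taken out, the deviations of P4hb and Calr correlated at r = 0.90, those of Pdia4 and Calr at 0.93, those of Hsp90b1 and Canx at 0.88, and those of Hsp90b1 and Calr at -0.81, given as a description of libraries that share depth and base composition.

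The GC content of the transcripts went with these deviations for some members and not for others. P4hb (53.8%), Xbp1 (53.0%) and Calr have the highest GC content of the 9 and Hsp90b1 (43.8%) and Canx (42.2%) the lowest. Pdia4 (47.6%) was about as low in control 1 and mutant 3 as P4hb, with a lower GC content than Pdia6 (48.9%), which deviated by -0.04 and -0.03. Hspa5 (45.6%) was also low in control 1 (-0.18). Across all genes, log2 levels changed by -0.08 and -0.15 per 10 points of GC in control 1 and mutant 3, and by 0.11 and 0.10 in controls 2 and 3, relative to the mean library. With a smooth trend on GC content removed from each library, the log2 difference was 0.49 for P4hb (limma adjusted p = 4.29e-04), 0.39 for Hsp90b1 (0.00322) and 1.55 for Ero1l (1.18e-08), and the other 7 members were again not called. After the correction the SD of log2 values was smaller in both groups for P4hb, Hsp90b1, Calr, Canx and Xbp1, larger in both for Hspa5 and Pdia6, and smaller in 1 group only for Pdia3, Pdia4 and Ero1l. It went from 0.11 to 0.07 in controls and from 0.13 to 0.10 in mutants for P4hb, and from 0.13 to 0.15 and from 0.07 to 0.10 for Hspa5. In controls the SD of Ero1l went from 0.05 to 0.10. The correction was chosen after seeing the data, and 96.6% of tested genes had a GC value.

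**Figure D3:**
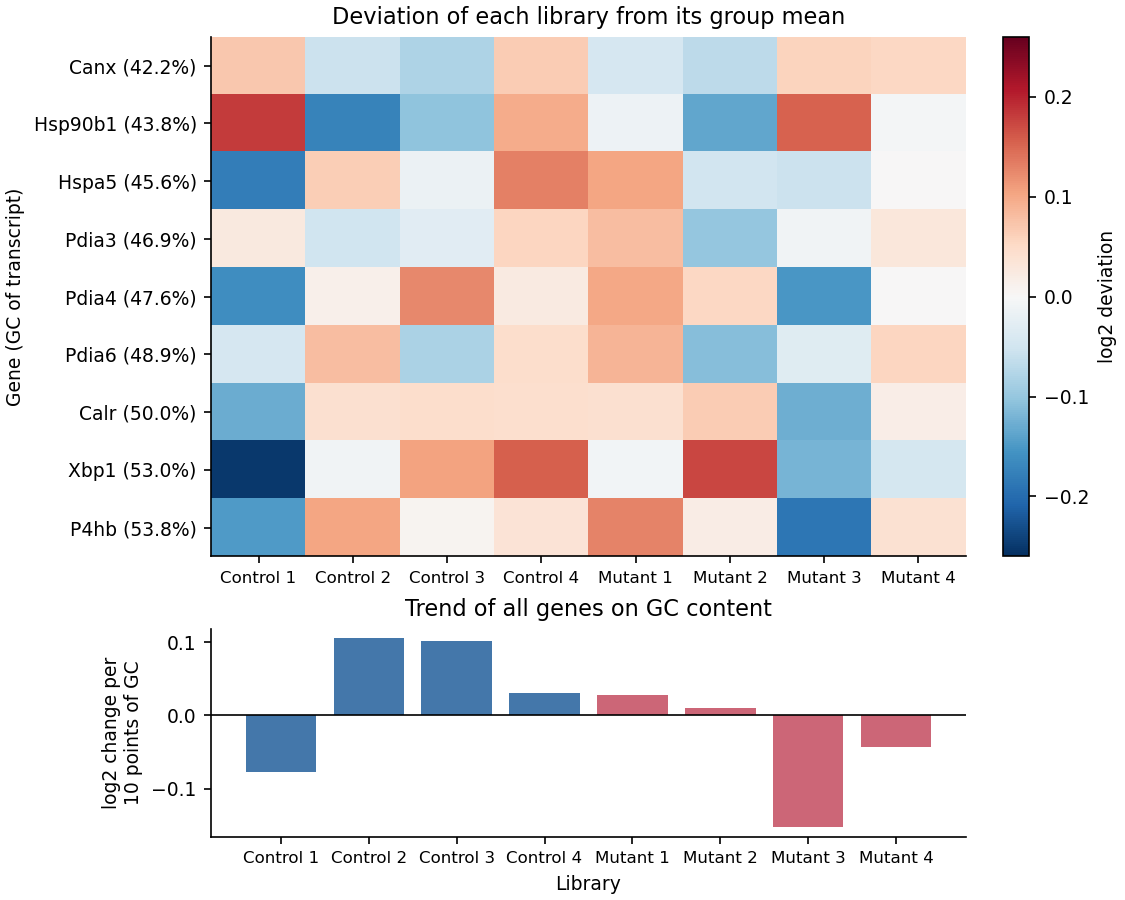
Top, log2 deviation of each library from its group mean (color) for the 9 ER folding genes (rows, ordered by GC content of the transcript) in the 8 libraries (columns). Bottom, trend of all genes on GC content in each library, in log2 change per 10 points of GC (bars from 0), lowest in mutant 3 (-0.15) and control 1 (-0.08), the libraries in which P4hb and Calr are low and Hsp90b1 and Canx are high. Pdia4, of middling GC content, is low there too.

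Around the folding set, the ER prolyl isomerases and collagen chaperones lay below 0. Of 9 genes 0 rose, 3 fell and 6 were not called, with 0 of 9 log2 differences above 0 and a median of -0.18. Serpinh1, the collagen chaperone Hsp47, was at 45419, 52675.5, 51954 and 51985 normalised reads in controls and 45949.5, 41269.5, 36989 and 42503 in mutants, where control 1 fell within the range of the mutants. It fell by 0.28 in log2 units (SE 0.08, limma adjusted p = 0.0487). Fkbp14, a prolyl isomerase that acts on collagen, fell by 0.24 (adjusted p = 0.0358) and Ppic, a cyclophilin, by 0.18 (adjusted p = 0.0409). These calls were close to the threshold: Serpinh1 was called in 9, Fkbp14 in 13 and Ppic in 10 of 23 alternatives. The count of 3 became 0 without control 2, control 3, control 4 or mutant 4, and 1 without mutant 2 or mutant 3.

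The machinery of entry, calcium and retrieval gave 1 call by limma. Of 23 translocation genes 0 were called by limma, 0 had an unadjusted p under 0.05 and 0 were called in the authors' deposited table. Ssr3 and Sec61a1, the most abundant of them, had log2 differences of 0.08 and -0.09 (limma adjusted p = 0.358 and 0.537). Of 20 calcium handling genes 0 were higher and 3 lower at an unadjusted p under 0.05, and the authors' deposited table has 2 falls. By limma the pump gene Atp2a1 fell from 854 ± 110 to 481 ± 62.3 normalised reads (SD, n = 4 each, log2 difference -0.83, adjusted p = 7.48e-04), though an annotated gene on the opposite strand overlaps its exons. Calu, a calcium-binding protein of the secretory pathway, was at 23451 ± 789 and 22529 ± 531 (adjusted p = 0.555). Of 5 genes that return proteins to the ER, 0 were called by limma or in the authors' deposited table and 0 had an unadjusted p under 0.05. The KDEL receptor genes Kdelr1 and Kdelr2, which retrieve BiP and Grp94, had log2 differences of -0.08 and 0.09 (adjusted p = 0.481 and 0.418).

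**Figure D4:**
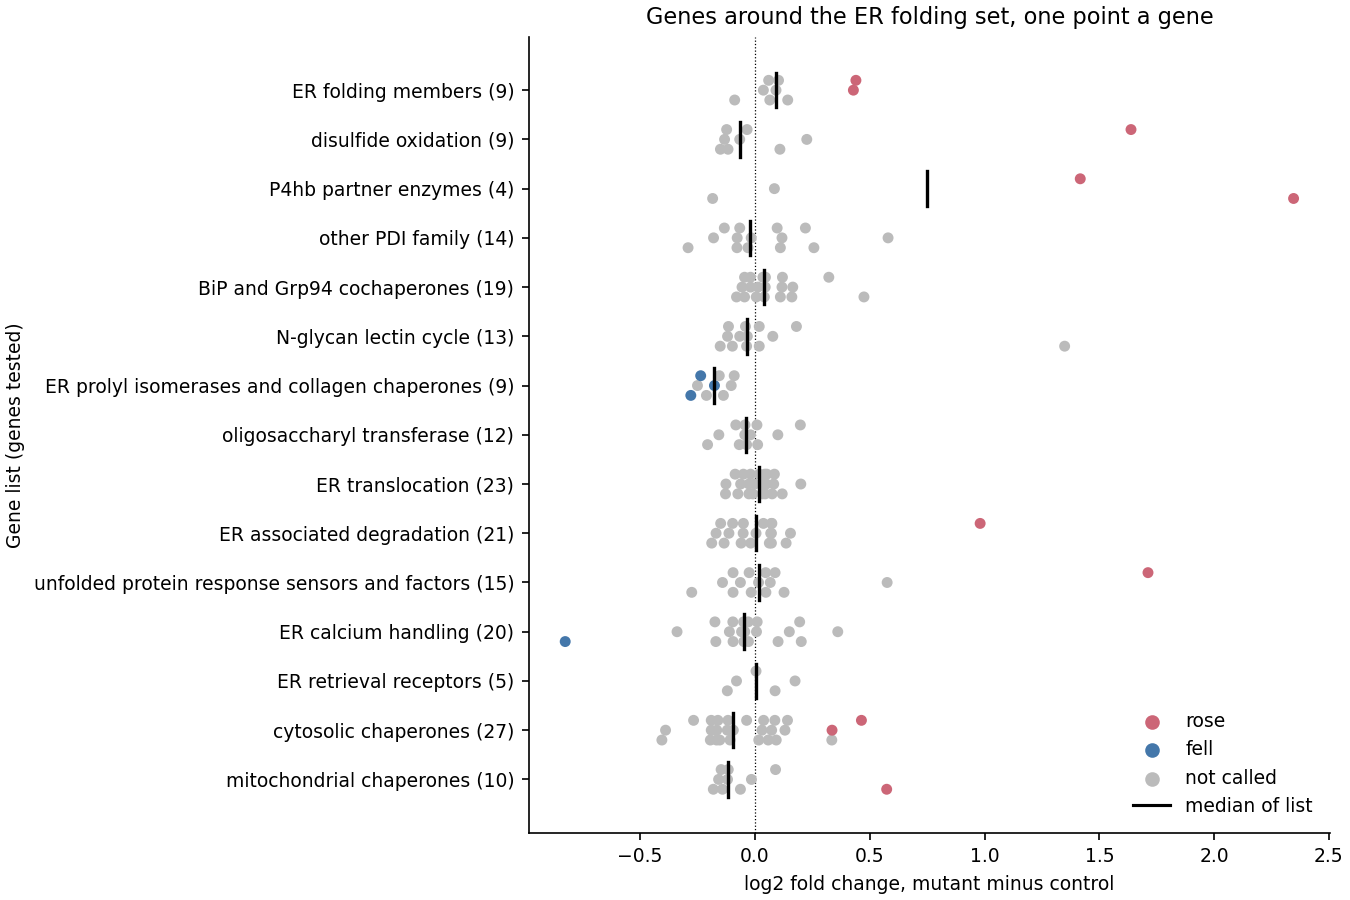
Log2 fold change (x axis, mutant minus control) of each tested gene (points) in the ER folding set and 14 lists around it (y axis, number of genes tested in parentheses), red where the gene rose, blue where it fell, grey where it was not called, with a black bar at the median of the list. The called points of the folding set are P4hb and Hsp90b1 near 0.4, the highest point is P4ha2 (2.35), and all 9 points of the prolyl isomerase and collagen chaperone list lie below 0.

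The genes whose pattern was most like the mean of the 9 members were sought among 12211 genes with a mean of at least 100 normalised reads. Over the 8 libraries these were Tmem238 (r = 0.970), Ifitm2 (0.969), Cmip (0.969), Arl6ip5 (0.967) and Lgr6 (0.966), of which Lgr6 was called (log2 difference 0.46, limma adjusted p = 0.0446). With group means taken out they were Ppp2ca, Gtf2f2, 2210016F16Rik, Rrm2 and Sugt1 (r from 0.961 to 0.980), of which 0 were called. The correlations describe 8 libraries that share depth and composition.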

How the data were processed

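For each library the authors deposited a signal, which was read here as reads per gene over a size factor. The column names do not state this unit. A second division by the same factors, recycled down the genes, was seen in the values and undone: whole reads rebuilt the mean of 20254 of 20254 genes within a relative tolerance of 1e-09. STAR 2.5.3a, DESeq2 1.18.1 and mm10 were used, per the submitters' processing notes; for the read counter, gene annotation and strand setting nothing is stated (not given in the sources used here), and the library kit was stranded, per the labels' protocols. The authors' log2 fold changes and p-values in the deposited table were read as an alternative setting, while the deposited Wald score was unused. The number of per-sample columns left out was 0.

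Reads divided once by the size factors were compared as log2(value + 1) with limma 3.58.1 in R 4.3.3, with trended and robust variances, in 1 fit of 8 libraries without covariates. A gene entered with 10 or more normalised reads in 4 or more libraries. Two-sided p-values were adjusted by Benjamini-Hochberg over all 15381 genes, and calls were made at an adjusted p under 0.05. The fit was tested on simulated data. At 37252683 to 46515762 reads, precision is set mainly by the spread between libraries.

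Members, gene lists and naming rules were chosen with earlier results of these data known. Named from each list were up to 4 called genes by adjusted p and, where fewer than 2 were called, the most abundant tested genes until 2 were named; other names are marked. The value of 1 marker gene is not reported here. Transcript lengths, GC content and overlaps came from GENCODE M21 and promoters from RefSeq. Annotated genes on the opposite strand overlap exons of Atp2a1, Calu, Ddit3, Dnajb9, Eif2ak3, Fkbp14, Hspd1, Manf, Mttp, Rpn2, Sec61a1, Txndc5 and Vcp. On the same strand, Rbm15b overlaps exons of Manf. Reads of these genes may include those of the overlapping genes. The log2(value + 1) scale understates changes of genes with few reads. Alternatives were other pseudocounts, filters, scalings and variance models, limma-voom, the values as deposited, a replicate block, libraries left out and a GC correction. The check of replicate numbers found no pairing.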

Additional observations from a re-analysis of the deposited data

Results flagged for a closer look

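In 76 groups of 4 libraries (38 named genes in each group), the lowest or highest library was compared with its neighbour, and 7 groups held a library far from the others. Chance flags about 1 in 20 groups. Control 1 was that library in 6 of the 7, each time as the lowest. It held 24386 normalised reads of Calr, the calcium-storing lectin chaperone, where the other controls held 27435 to 27519. The collagen chaperone Serpinh1 was at 45419 in control 1, the oligosaccharyl transferase subunit Ddost at 9269.9, the KDEL receptor Kdelr2 at 5308.5, the ATF6 protease Mbtps1 at 13383 and the disulfide isomerase Txndc5 at 11897. The seventh was Ppic, a cyclophilin, highest in control 4 at 4366.3. Without control 1, the members called were again P4hb and Hsp90b1.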

How the results depend on the processing

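The count of 2 called members held under 22 of 23 alternatives, including each of the 8 fits without 1 library (range 2 to 2), and became 1 without control 3 and mutant 2, where P4hb had an adjusted p of 0.0501; that pair, the pair of control 2 and mutant 2 and the GC correction were chosen after seeing the data. Over all genes 1297 were called, against 766 with the replicate block, 2996 with library quality weights, 698 with the values as deposited, 764 without control 3 and mutant 2, 662 without control 2 and mutant 2, and 774 to 1565 without 1 library, with 816 without control 4 and 774 without mutant 4; the cause was not tested. Replicate numbers did not pair the samples (correlations of deviations 0.23, -0.14, -0.14 and 0.08), and the replicate block called 2 members. Of 230 fits of the members and Ero1l, 225 kept direction and call. The log2 difference changed sign in uncalled genes only. Xbp1 was -0.040 with quality weights, -0.024 without control 2 and mutant 2, and -0.046 to 0.089 without 1 library. Mlec was -0.002 with total-read scaling, -0.014 without control 2 and mutant 2, and -0.014 to 0.042 without 1 library. With the GC correction, Ddost was 0.043, Hyou1 0.011, Rpn2 0.015 and Ssr3 -0.018. Without 1 library, Ddost ranged from -0.067 to 0.038, Hyou1 from -0.113 to 0.011 and Rpn2 from -0.085 to 0.013. Planned count-model tests were not run, while limma-voom was run on the rebuilt reads. Trib3 was not tested under the filter of 50 normalised reads. The permutation p of Vhl was 0.0286 on either scale.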
